A study of Tremella fuciformis and Annulohypoxylon stygium and Tremella fuciformis
Annulohypoxylon stygium with 5 samples.

Results

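Unigene7021 (Unigene7021_All in the table) of Tremella fuciformis, a white jelly fungus, and Unigene14536 (Unigene14536_All) of the ascomycete Annulohypoxylon stygium are predicted 2-oxoglutarate-dependent dioxygenases whose levels moved in opposite directions once the fungi had met. They are 2 of 42507 unigenes, the sequences assembled de novo from all libraries together. They were chosen because Unigene7021 was higher in T. fuciformis after contact than in T. fuciformis alone, and Unigene14536 lower in A. stygium after contact than in A. stygium alone. Those values are therefore given as a description, and the dual mycelia, outside those contrasts, add a further library. Ratios of the dual mycelia over a fungus alone reuse the alone library of the choice, so they are not independent of it.

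Transcripts were measured in 5 libraries of wild type mycelia, 1 for each condition. T. fuciformis was sampled 1 week after interaction with A. stygium and alone at an age of 2 weeks. Dual mycelia of T. fuciformis and A. stygium were sampled 1 week after they had met. A. stygium was sampled 1 week after interaction with T. fuciformis and alone at an age of 1 week. The sources used here do not give the total age of the interacting mycelia or say whether a library pooled several cultures, and culture age and contact cannot be told apart. With 1 library per condition there was no replicate spread to compare a difference with, and no test is reported. Summed FPKM (fragments per kilobase of unigene, scaled to the library's total) lay between 524250 and 657997 per library. Unigenes assigned to T. fuciformis held 99.2% of it in each library of that fungus and 36.4% in the dual mycelia, and those assigned to A. stygium held 98.9% to 99.0% in each of its own and 59.0% in the dual mycelia. The 4 libraries of a single fungus held between 0.0535% and 0.0804% of the other fungus.

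Enzymes of this superfamily use iron and 2-oxoglutarate, an intermediate of the citric acid cycle, to oxidise a substrate with molecular oxygen. They release succinate and carbon dioxide. In plants, flavonol synthase, flavanone 3-hydroxylase and leucoanthocyanidin dioxygenase act on flavonoids, and gibberellin oxidases act on plant hormones. In fungi and bacteria, relatives act in antibiotic synthesis, in the release of sulfur from taurine and other sulfonates, in the oxidation of xanthine and thymine, in carnitine synthesis, in DNA repair and in the removal of methyl groups from histones. Isopenicillin N synthase shares the fold and the iron centre but does not use 2-oxoglutarate.

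The annotations deposited with the table placed both unigenes in the same branch of this superfamily. The nearest Nr protein of Unigene7021 was a flavonol synthase/flavanone 3-hydroxylase of the yeast Trichosporon oleaginosus, with an e-value of 4.4e-138. That of Unigene14536 was a putative 2-oxoglutarate-dependent dioxygenase of Tolypocladium ophioglossoides, a parasite of truffle-like fungi, with an e-value of 1.8e-117. Both unigenes carried KOG0143, the class of iron/ascorbate family oxidoreductases, with e-values of 5.4e-31 and 2.3e-28. Both also had the same KEGG entry, a yeast protein named flavonol synthase and filed under gibberellin 2-oxidase, at the weaker e-values of 5.7e-12 and 4.9e-10. In SwissProt they parted. Unigene7021 was nearest to an uncharacterised Schizosaccharomyces pombe protein of family UPF0676 (2.2e-31), whereas Unigene14536 was nearest to isp7 (4.8e-20), a protein of sexual differentiation in S. pombe that also takes part in amino acid uptake there. Neither name is a tested function in T. fuciformis or A. stygium.

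KOG0143 was assigned to 51 unigenes, 20 of T. fuciformis, 24 of A. stygium and 7 that reached less than 1 FPKM in every single-fungus library. The UPF0676 hit of Unigene7021 was shared by 28 unigenes, 14 of T. fuciformis and 12 of A. stygium. The isp7 hit of Unigene14536 was rarer, with 8 unigenes, 1 of T. fuciformis and 5 of A. stygium. Among the 20 A. stygium unigenes whose Nr text names a 2-oxoglutarate dioxygenase or a flavonol synthase, 11 had their nearest hit in Eutypa and 6 in Rosellinia, genera of the order Xylariales to which A. stygium belongs. Colletotrichum, Microdochium and Tolypocladium had 1 each. The hit in Tolypocladium, a genus of another order, the Hypocreales, was that of Unigene14536.

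Both unigenes were nearly private to their own fungus. Unigene7021 had 119 FPKM in T. fuciformis after interaction, 42.4 FPKM in the dual mycelia and 11.4 FPKM in T. fuciformis alone. In A. stygium it had 0.08 FPKM after interaction and was listed at 0 alone. Unigene14536 had 3.35 FPKM in A. stygium after interaction, 0.26 FPKM in the dual mycelia and 43.0 FPKM in A. stygium alone. In T. fuciformis it had 0.09 FPKM after interaction and was listed at 0 alone. Unigene7021 was thus highest in its fungus after contact, and Unigene14536 was highest in its fungus grown alone.

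**Figure D1:**
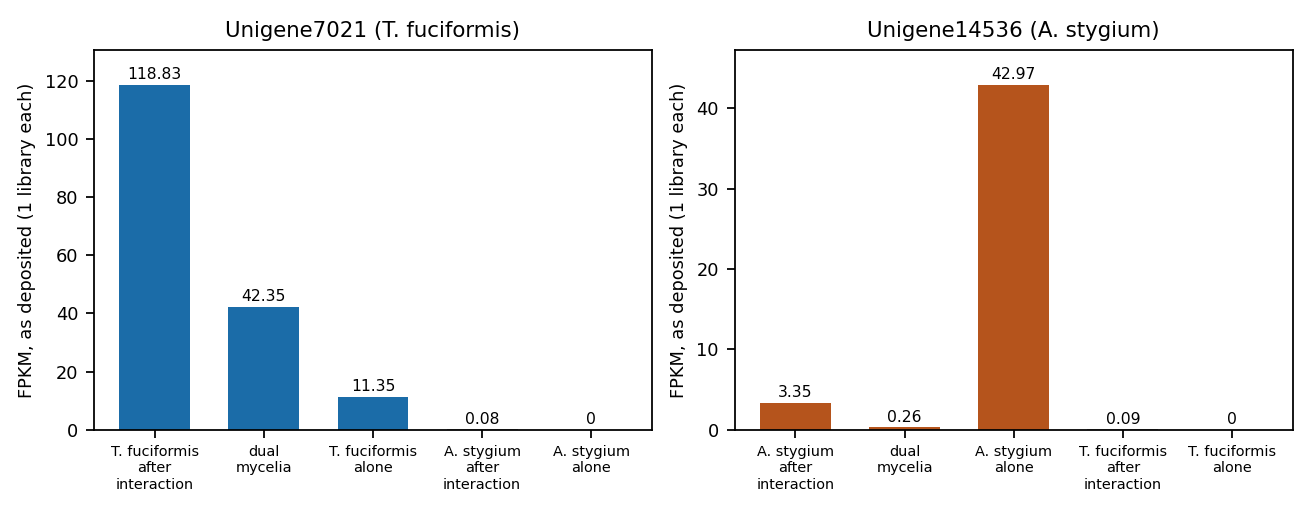
FPKM as deposited (vertical axis) of Unigene7021 and Unigene14536 in each of the 5 libraries (horizontal axis), 1 bar per library with no error, since each condition had 1 library. Unigene7021 is highest in T. fuciformis after interaction, at 119 FPKM, and Unigene14536 in A. stygium alone, at 43.0 FPKM.

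The low values of the table were read as steps of whole fragments. Taking the smallest value of each unigene, 0.08 and 0.09 FPKM, as 1 fragment, Unigene7021 was covered by about 1598 fragments in T. fuciformis after interaction (95% exact Poisson interval 1521 to 1678), 513 in the dual mycelia (469.6 to 559) and 146 in T. fuciformis alone (123 to 172). Unigene14536 was covered by about 35 fragments in A. stygium after interaction (24.4 to 48.7), 3 in the dual mycelia (0.619 to 8.77) and 447 in A. stygium alone (406.5 to 490.4). The counts are approximate, since FPKM is rounded to 0.01, and their intervals cover counting error only. The signal of each unigene in the partner's library after interaction is the value that was taken as 1 fragment. In those libraries the other fungus held 0.0626% of summed FPKM in T. fuciformis and 0.0670% in A. stygium.

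T. fuciformis after interaction was compared with T. fuciformis alone to see which transcripts differed after contact. Because the dual library divides its fragments between 2 fungi, FPKM was rescaled so that the unigenes of a fungus summed to 1e+06 in each library. On that scale Unigene7021 had 182 after interaction and 17.8 alone, 10.2-fold higher after interaction, with a 95% counting interval of 8.61 to 12.2. With a pseudocount of 1 added to each rescaled value, its log2 ratio was 3.28, the 23rd highest of 15354 T. fuciformis unigenes with at least 1 FPKM in 1 of these libraries. Among the 8522 unigenes of at least 10 FPKM it was the 16th highest. Its place within its fungus also moved. Of the 41 T. fuciformis unigenes named as 2-oxoglutarate oxygenases or their relatives it was the second most abundant by FPKM after interaction, and the 19th alone.

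In the dual mycelia Unigene7021 stood as high as in T. fuciformis after interaction once the mixture was taken into account. Its rescaled level was 194.0 in the dual mycelia, against 182 in T. fuciformis after interaction and 17.8 in T. fuciformis alone. The dual level was 10.9-fold that of T. fuciformis alone (counting interval 9.03 to 13.2), and the log2 ratio of 3.37 ranked 239th of 14206 unigenes. Against T. fuciformis after interaction the dual level was 1.07-fold (counting interval 0.963 to 1.18), a log2 ratio of 0.09, where 3.65% of all its unigenes were at least 4-fold higher and 4.14% lower. As deposited, without rescaling, the dual value of 42.4 FPKM lies below the 119 FPKM of T. fuciformis after interaction. In the dual mycelia, fewer T. fuciformis hyphae and less RNA per hypha cannot be told apart, and the rescaling takes out both. The dual mycelia and T. fuciformis after interaction were each set against the same library of T. fuciformis alone, so these ratios are not independent of each other.

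A. stygium after interaction was compared in the same way with A. stygium alone. The rescaled level of Unigene14536 was 6.20 after interaction and 82.9 alone, a ratio of 0.0748 (counting interval 0.0515 to 0.106) and a log2 ratio of -3.54. This was the 27th lowest ratio of 18667 A. stygium unigenes, and the 4th lowest of the 7911 with at least 10 FPKM. Alone, Unigene14536 was the 7th most abundant of the 35 A. stygium unigenes of the superfamily, and after interaction the 26th.

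The level of Unigene14536 was lower still in the dual mycelia. Its rescaled level there was 0.735, against 6.20 after interaction and 82.9 alone. The ratio of dual mycelia to A. stygium alone was 0.00888, with a counting interval of 0.00182 to 0.0261 that is wide because only about 3 fragments were seen. The log2 ratio of -5.59 was the second lowest of 17549 unigenes. It is taken over the A. stygium alone library on which Unigene14536 was chosen, so this rank partly repeats the choice. Against A. stygium after interaction the dual level was 0.119 times as high (0.0233 to 0.376), a log2 ratio of -2.05, where 2.6% of all A. stygium unigenes were at least 4-fold higher and 3.59% lower. The levels thus ran from dual mycelia, the lowest, through A. stygium after interaction to A. stygium alone, the highest. The upper step is the contrast on which Unigene14536 was chosen, and the lower one rests on single libraries, whose counting intervals leave out any spread between cultures. The dual mycelia differed from both A. stygium libraries also in holding the partner fungus, and the part of that difference in this order was not tested. For Unigene7021 the order was different, with dual mycelia and T. fuciformis after interaction close together and T. fuciformis alone far below.

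**Figure D2:**
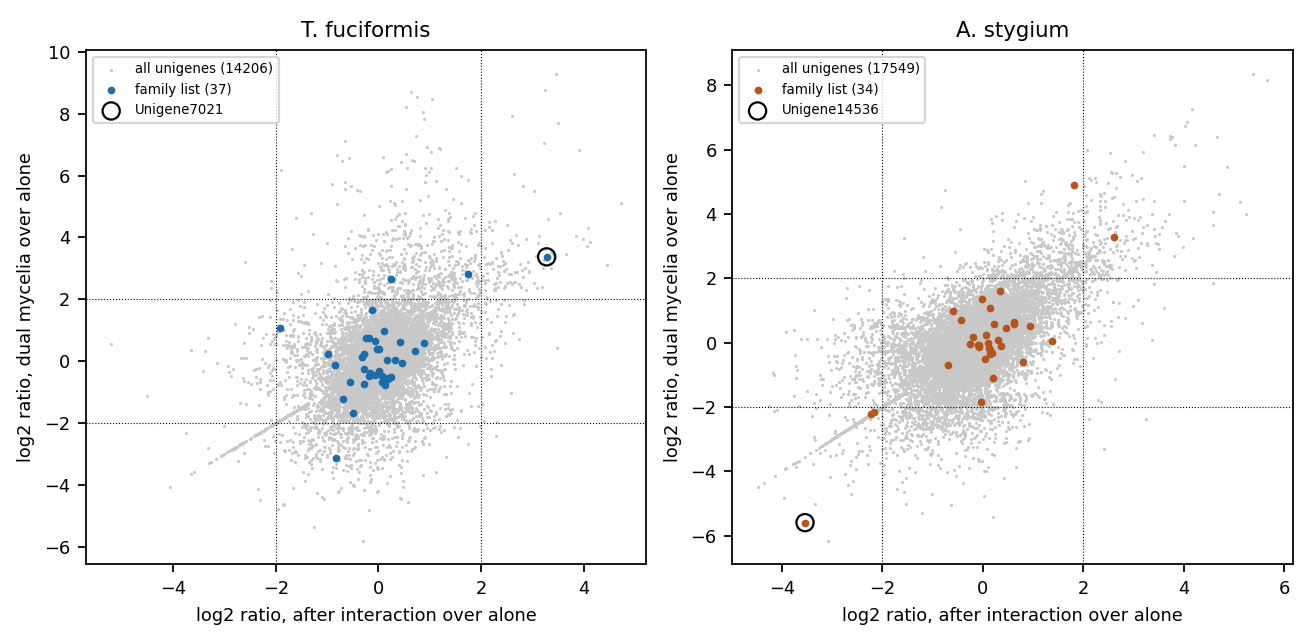
Log2 ratio of after interaction over alone (horizontal axis) against that of dual mycelia over alone (vertical axis), 1 point per unigene, for T. fuciformis and for A. stygium; grey points are all unigenes, coloured points the 2-oxoglutarate oxygenase list, and the open circle the named unigene. Both axes share the library grown alone. Unigene7021 lies at 3.28 and 3.37 and Unigene14536 at -3.54 and -5.59, on opposite sides of 0 on each axis.

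The other rows whose Nr text names a 2-oxoglutarate-dependent dioxygenase or a flavonol synthase were taken next. With Unigene7021 and Unigene14536 they number 31, of which 4 belonged to T. fuciformis and 20 to A. stygium, and 7 were assigned to neither, the highest of these at 1.95 FPKM. Ratios of at least 4-fold, a log2 ratio of 2, were counted as higher or lower. In T. fuciformis after interaction over alone, 2 of the 4 were higher and 0 lower, where 2.43% of all its unigenes were higher and 1.07% lower. In A. stygium after interaction over alone, 1 of 20 was higher and 3 lower, where 2.93% of all its unigenes were higher and 3.05% lower. Because the members were chosen on these contrasts, nothing is read from the counts that include them.

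The unigenes named flavonol synthase were, apart from Unigene7021, all low. In T. fuciformis, Unigene18824 had 3.79 FPKM after interaction, was listed at 0 in the dual mycelia and had 0.45 FPKM alone. Like Unigene7021 it was higher after interaction than alone, at a low level. Its log2 ratio of dual mycelia over T. fuciformis after interaction was -2.77, where that of Unigene7021 was 0.09. Unigene19087, Unigene17990 and Unigene10006 stayed below 1 FPKM in T. fuciformis after interaction and alone, with at most 1.76 FPKM in the dual mycelia. In A. stygium, CL8189.Contig1 was listed at 0 after interaction and in the dual mycelia and had 1.90 FPKM alone, while the summed contigs of its cluster had a log2 ratio of -0.33 after interaction. Unigene2807 had 1.35 FPKM after interaction and 1.33 FPKM alone, and Unigene7183 had 1.09 and 0.72 FPKM. Both were listed at 0 in the dual mycelia. Unigene12858, named after the naringenin 3-dioxygenase of flavonoid synthesis, had 0.99 FPKM after interaction in A. stygium, 0.51 FPKM in the dual mycelia and 0.49 FPKM in A. stygium alone.

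Of the rows with a general 2-oxoglutarate oxygenase name, several in A. stygium lay within 2-fold. CL571.Contig1 had 12.9 FPKM after interaction, 8.40 FPKM in the dual mycelia and 20.4 FPKM alone, a log2 ratio of -0.69 after interaction. Unigene10792 had 20.3, 9.45 and 15.1 FPKM in the same order, and CL2016.Contig3 had 14.9, 7.46 and 12.9 FPKM. Unigene5695 stood apart. It had 2.76 FPKM after interaction, 3.10 FPKM in the dual mycelia and was listed at 0 in A. stygium alone. It was the single row of this kind seen in both contact libraries and not in A. stygium alone, at a low level. In T. fuciformis, Unigene18580 had 3.22 FPKM after interaction and was listed at 0 in the dual mycelia and alone.

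The row of the A. stygium list with the highest ratio in the dual mycelia was CL878.Contig1, named after the dioxygenase that bacteria use to break down the herbicide dichlorophenoxyacetate. It had 5.30 FPKM in A. stygium after interaction, 31.9 FPKM in the dual mycelia and 1.08 FPKM in A. stygium alone. Its log2 ratio was 1.81 after interaction and 4.89 in the dual mycelia, the opposite side from Unigene14536. The other 3 contigs of its assembly cluster do not carry a dioxygenase name: CL878.Contig2 was named isotrichodermin C-15 hydroxylase, CL878.Contig3 a cytochrome P450 benzoate 4-monooxygenase, and CL878.Contig4 had no usable description. They ran the other way, each lower in both contact libraries than alone, and the summed cluster, which mixes these names, had log2 ratios of -1.44 and -0.37. Whether fragments were divided differently among the contigs was not tested.

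Of the 20 A. stygium rows, 19 could be compared between dual mycelia and A. stygium alone. Of these, 2 were at least 4-fold higher and 3 lower, where 3.9% of all A. stygium unigenes were higher and 4.98% lower. Apart from Unigene14536, those lower were CL8189.Contig1 and CL2016.Contig4, each listed at 0 in the dual mycelia and below 2 FPKM alone. The median log2 ratio of the 19 was -0.12, and that of all unigenes -0.10.

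A wider list took in every name of the superfamily, 93 unigenes in 66 assembly clusters, 41 of T. fuciformis, 35 of A. stygium and 17 of neither. After contact the share of it within 2-fold was near that of all unigenes. In T. fuciformis after interaction, 35 of 41 lay within 2-fold of T. fuciformis alone, against 84.3% of all its unigenes. At least 4-fold, 3 were higher and 0 lower, where 2.43% of all were higher and 1.07% lower, and the median log2 ratio was 0.02 against -0.01 over all unigenes. Besides Unigene7021, those 4-fold higher were Unigene18580 and the phytanoyl-CoA dioxygenase-like Unigene18095 (2.21 FPKM after interaction), both listed at 0 alone. In A. stygium after interaction, 29 of 35 lay within 2-fold of A. stygium alone, against 78.8% of all its unigenes, 3 were at least 2-fold higher and 3 lower, where 9.89% of all its unigenes were 2-fold higher and 11.3% lower. The median was 0.13 against -0.13 over all unigenes.

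Members of the list that reached 10 FPKM in some library lay close together after interaction. In T. fuciformis there were 20, and the 19 other than Unigene7021 all lay within 2-fold, between log2 ratios of -0.70 and 0.90. In A. stygium there were 19, and 17 of the 18 other than Unigene14536 lay within 2-fold. CL878.Contig1, at 1.81, reached 10 FPKM only in the dual mycelia. Without it the highest was the sulfonate dioxygenase-like CL1102.Contig3, with 13.2 FPKM after interaction and 7.05 FPKM alone, at 0.80, and the lowest was CL571.Contig1, at -0.69. Unigene7021 and Unigene14536 lay outside these ranges, but they were chosen on this same contrast, so nothing is read from that.

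**Figure D3:**
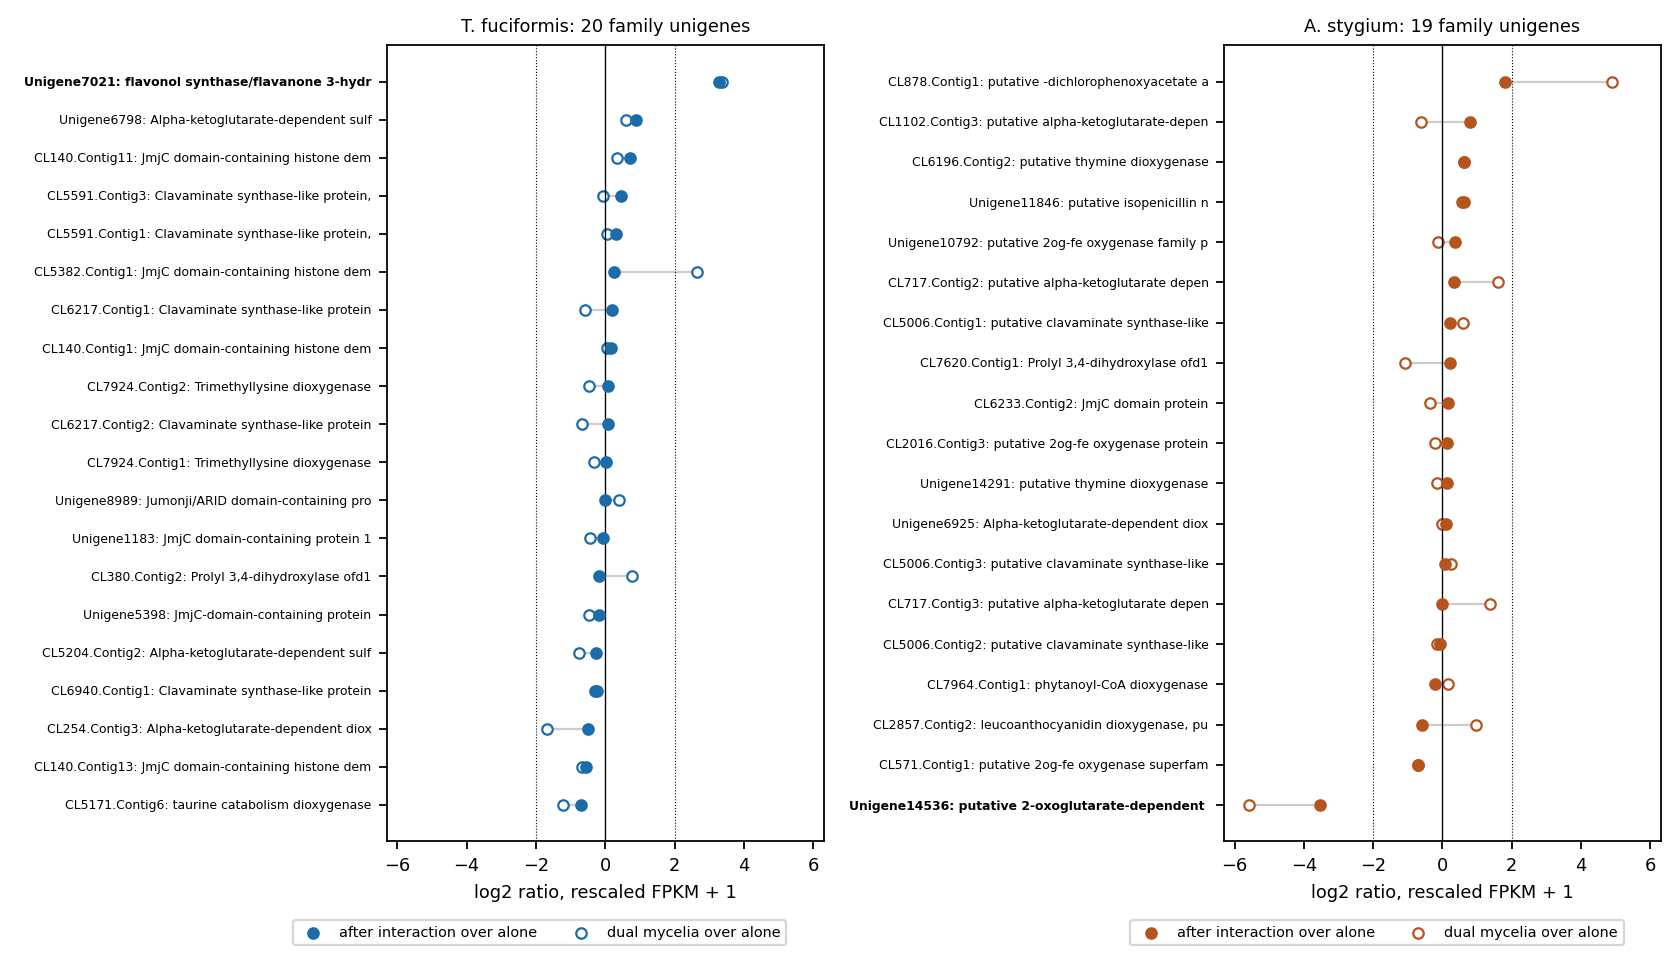
Log2 ratios (horizontal axis) of each unigene of the 2-oxoglutarate oxygenase list that reached 10 FPKM in a library, 1 row per unigene, for T. fuciformis and for A. stygium; filled points are after interaction over alone and open points dual mycelia over alone, with dotted lines at 4-fold. Filled points cluster around 0, apart from Unigene7021 at 3.28, Unigene14536 at -3.54 and CL878.Contig1 at 1.81.

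In the dual mycelia the list was again close to all unigenes. For T. fuciformis, 3 of 37 were at least 4-fold higher and 1 lower than in T. fuciformis alone, where 4.98% of all its unigenes were higher and 3.56% lower. At 2-fold, 5 were higher and 3 lower, where 12.6% of all were higher and 13.2% lower. The taurine dioxygenase-like Unigene7793, of a group that frees sulfite from taurine, had 4.15 FPKM in T. fuciformis after interaction, 3.19 FPKM in the dual mycelia and 0.76 FPKM alone. Its rescaled log2 ratios were 1.75 after interaction and 2.83 in the dual mycelia, on the same side as those of Unigene7021. The histone demethylase-like CL5382.Contig1 had 21.1, 38.1 and 17.2 FPKM in these libraries, with log2 ratios of 0.26 and 2.65. CL5382.Contig3 of its cluster, outside the list, had 14.4, 71.0 and 0.93 FPKM, log2 ratios of 3.23 and 7.05, and the summed cluster had 0.73 and 3.80. For A. stygium, 24 of 34 lay within 2-fold in the dual mycelia, against 73.4% of all its unigenes. At least 4-fold, 2 were higher and 3 lower, all of them rows already described, where 3.9% of all were higher and 4.98% lower. The KOG0143 class, grouped after the data were seen, differed more in places. In the dual mycelia over T. fuciformis alone, 5 of 19, in 10 clusters, were at least 4-fold higher and 1 lower. Its median log2 ratio was 0.73, against -0.17 over all unigenes. In A. stygium after interaction, 7 of 24, in 14 clusters, were at least 2-fold lower and 2 higher. Of all A. stygium unigenes 11.3% were lower and 9.89% higher. Both counts include a member, so nothing is read from them.

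The most abundant relatives are described next. Unigene7021 and Unigene14536 were chosen on their change after contact, so nothing is read from their larger ratios. In T. fuciformis this was Unigene6798, nearest to a sulfonate dioxygenase of the kind that frees sulfur from organic sulfonates, with 318 FPKM after interaction, 86.2 FPKM in the dual mycelia and 166 FPKM alone. Its log2 ratios were 0.90 after interaction and 0.60 in the dual mycelia, on the same side as those of Unigene7021 but smaller. In A. stygium it was CL2857.Contig2, named after leucoanthocyanidin dioxygenase, with 422 FPKM after interaction, 818 FPKM in the dual mycelia and 611 FPKM alone. Its log2 ratio was -0.59 after interaction and 0.97 in the dual mycelia. It is, with its plant flavonoid name, the relative closest in name to Unigene7021 at a high level, and both its ratios over A. stygium alone lay within 2-fold. Over A. stygium after interaction its dual log2 ratio was 1.56.

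By role, the remaining groups were as follows. The xanthine dioxygenase rows CL717.Contig2 and CL717.Contig3, of an enzyme that turns xanthine into uric acid, had a summed log2 ratio for their cluster of 0.18 after interaction and of 1.48 in the dual mycelia, both over A. stygium alone. The thymine dioxygenase-like Unigene14291 had 83.8 FPKM after interaction, 44.6 FPKM in the dual mycelia and 73.7 FPKM alone. The prolyl dihydroxylase CL7620.Contig1, named after fission yeast ofd1, which acts in oxygen sensing, had 189 FPKM after interaction, 50.5 FPKM in the dual mycelia and 158 FPKM alone, log2 ratios of 0.21 and -1.08. In the dual mycelia it had the lowest ratio of the 18 listed A. stygium unigenes other than Unigene14536 that reached 10 FPKM. Unigene11382, outside the list, carried KOG0143 and a mannosidase name in Nr. It had 8.44 FPKM after interaction, 7.82 FPKM in the dual mycelia and 28.3 FPKM alone, log2 ratios of -1.74 and -1.26. Unigene11382 was picked for mention after its values were seen. In T. fuciformis the DNA repair-like CL254.Contig3 had 9.14, 1.23 and 12.8 FPKM in the order after interaction, dual and alone, and a dual log2 ratio of -1.67. The 13 T. fuciformis unigenes with JmjC names, which mark histone demethylases, had after-interaction log2 ratios between -0.98 and 0.71. The trimethyllysine dioxygenase of carnitine synthesis, CL7924.Contig1, had 33.5 FPKM after interaction, 8.75 FPKM in the dual mycelia and 32.2 FPKM alone.

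Unigenes that share the SwissProt hit of a member, a grouping made after their values were seen, differed among themselves. Of the 5 isp7-like unigenes of A. stygium, 3 were at least 2-fold lower after interaction, where 11.3% of all its unigenes were. They were Unigene14536, chosen on this contrast, and CL680.Contig2 and CL680.Contig4, contigs of 1 cluster. The median log2 ratio of the 5 was -1.09 against -0.13 over all unigenes, and nothing is read from it. Unigene11846, a further isp7-like unigene of A. stygium, had 69.5 FPKM after interaction, 44.1 FPKM in the dual mycelia and 43.4 FPKM alone, log2 ratios of 0.62 and 0.57. The isp7-like contigs of cluster CL680 were low. CL680.Contig3 had 5.86, 3.76 and 6.66 FPKM in the same order, a log2 ratio of -0.22 after interaction. CL680.Contig2 had 0.49, 1.45 and 2.21 FPKM and CL680.Contig4 had 1.36, 1.69 and 3.36 FPKM, with log2 ratios of -1.46 and -1.09 after interaction and -0.04 and -0.37 in the dual mycelia. They lay on the side of Unigene14536 after interaction, at levels of a few FPKM, and within 2-fold in the dual mycelia. The summed cluster CL680 had log2 ratios of -0.69 after interaction and -0.26 in the dual mycelia, both within 2-fold. The isp7-like unigene of T. fuciformis, Unigene13585, had 26.9 FPKM after interaction, 5.11 FPKM in the dual mycelia and 23.3 FPKM alone. Unigene14536 and Unigene11846 thus had like levels in A. stygium alone, 43.0 and 43.4 FPKM, and unlike levels after interaction, 3.35 and 69.5 FPKM. Of the 14 T. fuciformis unigenes with the UPF0676 hit, in 6 assembly clusters, 12 lay within 2-fold after interaction, against 84.3% of all its unigenes. At 4-fold, 1 was higher, which was Unigene7021, and 1 lower, which was CL3794.Contig2, where 2.43% of all were higher and 1.07% lower. In the dual mycelia 3 of the 14 passed 4-fold upward and 1 downward, where 4.98% of all were higher and 3.56% lower. Those higher were Unigene7021 itself, CL3794.Contig2 and Unigene1721. The last had 1.25 FPKM after interaction, 4.43 FPKM in the dual mycelia and 0.40 FPKM alone. The 1 lower was CL3794.Contig3, and the summed cluster CL3794, of 8 contigs, had a dual log2 ratio of 0.83.

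Dioxygenases that do not use 2-oxoglutarate were counted beside the list. In T. fuciformis after interaction 13 of 14 lay within 2-fold, against 84.3% of all unigenes, and 0 passed 4-fold, where 2.43% were higher and 1.07% lower. The 3-hydroxyanthranilate 3,4-dioxygenase Unigene13556, which opens a ring in tryptophan breakdown, had 78.8 FPKM after interaction, 65.4 FPKM in the dual mycelia and 40.8 FPKM alone, log2 ratios of 0.90 and 2.21. In A. stygium after interaction 22 of 29 lay within 2-fold, against 78.8% of all unigenes, and 1 was at least 4-fold higher and 1 lower, where 2.93% were higher and 3.05% lower. The lignostilbene dioxygenase-like CL919.Contig1, of a family that splits stilbenes, had 132 FPKM after interaction, 6.45 FPKM in the dual mycelia and 128 FPKM alone. It resembled Unigene14536 in the dual mycelia, with a log2 ratio of -3.68, but not after interaction, with -0.01. The cysteine dioxygenase CL2907.Contig2 ran the other way, with 26.1, 44.1 and 12.5 FPKM and log2 ratios of 0.98 and 2.33.

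Enzymes that make or use 2-oxoglutarate, the co-substrate, were counted in the same way. In T. fuciformis after interaction 20 of 23 lay within 2-fold, against 84.3% of all its unigenes, 3 were at least 2-fold higher and 0 lower, where 10.4% of all its unigenes were 2-fold higher and 5.26% lower. The 2-oxoglutarate dehydrogenase contigs CL3473.Contig1 and CL3473.Contig2 had log2 ratios of 1.36 and 1.05 after interaction. Their ratios in the dual mycelia were 0.77 and 0.08. The more abundant 2-oxoglutarate dehydrogenase Unigene4127 had 324 FPKM after interaction, 37.4 FPKM in the dual mycelia and 260 FPKM alone. Its log2 ratios were 0.28 and -1.25. The NADP isocitrate dehydrogenase Unigene12724, which makes 2-oxoglutarate, had 216 FPKM after interaction, 64.5 FPKM in the dual mycelia and 107 FPKM alone. Its log2 ratios were 0.98 and 0.81. The NAD isocitrate dehydrogenases ran the other way, with -0.33 and -0.96 for CL4667.Contig2 and -0.32 and -0.92 for Unigene4826. In A. stygium after interaction 25 of 28 lay within 2-fold, against 78.8% of all its unigenes. In the dual mycelia over A. stygium alone 8 of 27 were at least 2-fold higher and 1 lower, where 11.9% of all its unigenes were higher and 14.8% lower. The median log2 ratio of these 27 was 0.71, against -0.10 over all unigenes. The 27 lay in 16 assembly clusters, and contigs of CL1992 and of CL4685 recurred among those higher. The rows are therefore not all separate genes, and nothing is read from this count or median. The NAD glutamate dehydrogenase CL1992.Contig3 was among the higher, with 10.4 FPKM after interaction, 14.4 FPKM in the dual mycelia and 4.31 FPKM alone.

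Of genes that handle phenolic compounds, the kind of substrate that flavonol synthase has in plants, T. fuciformis had 1 and A. stygium 20. After interaction 15 of the 20 lay within 2-fold of A. stygium alone, against 78.8% of all its unigenes. In the dual mycelia 5 were at least 2-fold higher and 3 lower, where 11.9% of all were higher and 14.8% lower. The phenylalanine ammonia-lyase Unigene414, which makes cinnamic acid, had 196 FPKM after interaction, 329.9 FPKM in the dual mycelia and 102 FPKM alone, log2 ratios of 0.88 and 2.24. The feruloyl esterase-like Unigene11058, of enzymes that release ferulic acid from plant cell walls, had 74.2, 408 and 6.25 FPKM, log2 ratios of 3.41 and 6.47. It had the highest ratio of the list, and other unigenes of this name differed from it. Unigene6144 had 26.1, 28.5 and 25.2 FPKM, log2 ratios of -0.01 and 0.72. Unigene15758 was listed at 0 in both contact libraries and had 1.86 FPKM alone. Names of enzymes that make the substrates of flavonol synthase in plants were found in A. stygium and not among the described unigenes of T. fuciformis. The chalcone-flavanone isomerase-like Unigene5314 had 31.0 FPKM in A. stygium after interaction, 28.5 FPKM in the dual mycelia and 27.0 FPKM alone. The chalcone synthase-like CL3037.Contig1 had 6.07, 3.82 and 2.46 FPKM in the same order, and the other contig of this name, CL3037.Contig2, was listed at 0 in both contact libraries and had 1.77 FPKM alone. These 3 unigenes were picked for mention after their values were seen.

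The unigenes whose ratios were most like those of each member were then sought in its own fungus, among described unigenes of at least 10 FPKM. Likeness was the distance between pairs of log2 ratios, after interaction over alone and dual mycelia over alone, so it rests on 3 libraries. Closeness of those found is built into this choice. Unigene7021 had near companions by ratio among 4127 candidates. The nearest were CL993.Contig2, named glycoside hydrolase/deacetylase, at a distance of 0.17 and the aldo/keto reductase Unigene3520 at 0.22. CL3588.Contig2, an alpha-glucoside symporter that takes up maltose-type sugars, lay at 0.40, the thaumatin-like CL4670.Contig1 at 0.54 and the flocculin-like Unigene10617 at 0.57. All of these were lower than Unigene7021 in every T. fuciformis library, with 21.8 to 28.3 FPKM after interaction, 8.28 to 9.72 FPKM in the dual mycelia and 1.87 to 2.64 FPKM alone. CL993.Contig2 and CL4670.Contig1 are contigs of larger clusters. The summed cluster had 36.3 FPKM after interaction, 11.8 FPKM in the dual mycelia and 5.24 FPKM alone for CL993.Contig2, and 44.1, 23.5 and 9.02 FPKM for CL4670.Contig1, so the clusters differed less between contact and alone than these contigs.

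Unigene14536 had none nearer than 1.46 among 6024 candidates. The nearest 2, CL6935.Contig3 and CL2701.Contig2, lay at 1.46 and 1.48 and were listed at 0 in both contact libraries. Both belong to larger assembly clusters, and the summed cluster of CL6935.Contig3 had 35.2 FPKM after interaction, 14.8 FPKM in the dual mycelia and 45.1 FPKM alone. The nearest unigene without other contigs was Unigene9479, named after dienelactone hydrolase, an enzyme of aromatic compound breakdown, at 1.51. It had 1.76 FPKM after interaction, 0.34 FPKM in the dual mycelia and 17.8 FPKM alone, the same order of levels as Unigene14536. CL1104.Contig1 and CL408.Contig5 lay at 2.09 and 2.10, each a contig of a larger cluster and listed at 0 in the dual mycelia.

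**Figure D4:**
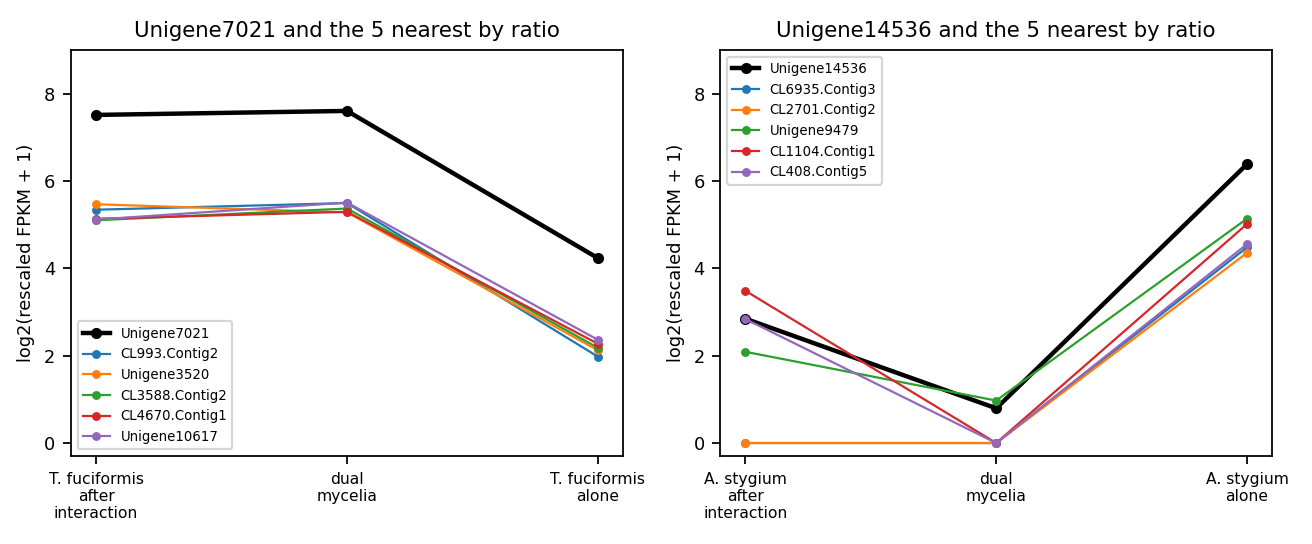
Log2 of rescaled FPKM plus 1 (vertical axis) of Unigene7021 and of Unigene14536 (black) and of the 5 unigenes nearest to each by ratio (coloured) in the library after interaction, the dual mycelia and the library alone (horizontal axis), 1 point per library. The neighbours were picked by their ratios, so like slopes are built in. Lines around Unigene14536 spread more, with CL6935.Contig3 and CL2701.Contig2 at 0 in both contact libraries. The pseudocount bounds the ratios of those contigs.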

How the data were processed

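The authors deposited 1 table of 42507 unigenes with an FPKM value per library, per the file headers, and database hits from Nr, SwissProt, KEGG, KOG and InterPro. RNA extraction with Trizol and standard Illumina library preparation are stated per the labels' protocols. The assembler, aligner and counter were not given in the sources used here. There were 0 further value columns. Libraries were grouped by their source names. No sequence or genome was used here, so no unigene carries a position.

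Assignment to a fungus took the larger of a unigene's FPKM values in the libraries of that fungus without its partner's mycelia, which had to reach 1 and be 10 times the larger value in those of the partner. For each fungus, FPKM was then rescaled to a sum of 1e+06 per library over its own unigenes. Ratios were log2((first + 1)/(second + 1)), for unigenes that reached 1 FPKM in either library compared, so ratios of low unigenes are understated and those of unigenes listed at 0 depend on the pseudocount. Members were called at 4-fold, and 2-fold counts are also given. With 1 library per group there is no p-value. The depth in fragments is not stated. It was inferred from the low values, over unigenes between 0.3 and 3 FPKM. The commonest ratio to T. fuciformis alone was 0.959 to 1.06, and 17.2% to 23.5% of these unigenes lay within 5% of it. On that basis 1 fragment was taken to be worth nearly the same FPKM in each library. Intervals are exact Poisson or exact conditional binomial, at 95%.

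Descriptions were those of the Nr hit or, where that was uninformative, of the SwissProt hit at an e-value of at most 1e-20. Lists were search words in the descriptions. Candidates for naming were both members and the unigenes whose Nr text names a 2-oxoglutarate dioxygenase or flavonol synthase. To these were added, in each list and comparison, the unigenes of at least 10 FPKM with the highest mean, highest ratio and lowest ratio. Not all candidates are named in the text, so those named are a selection. Others are named beside them or where a count turns on them. The members and lists were chosen with earlier results of these data known. Alternatives were other pseudocounts, scalings, assignments, filters, calls and lists. The code was tested on simulated data. Python 3.11.15, pandas 2.3.3, numpy 2.4.6 and scipy 1.17.1 were used.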

Additional observations from a re-analysis of the deposited data

Results flagged for a closer look

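2 T. fuciformis unigenes of the lists were lower after interaction than alone and higher in the dual mycelia than alone, so their ratios pointed in opposite directions. The difference was not tested, since each condition had 1 library. The taurine catabolism dioxygenase-like CL5171.Contig1 was listed at 0 after interaction, with 1.52 FPKM in the dual mycelia and 1.76 FPKM alone. Its log2 ratios were -1.91 and 1.08, a difference of -2.99. CL3794.Contig2, which shares KOG0143 and the UPF0676 hit with Unigene7021, was listed at 0 after interaction, with 5.40 FPKM in the dual mycelia and 2.08 FPKM alone. Its log2 ratios were -2.09 and 2.59, a difference of -4.69. Each is 1 contig of a larger assembly cluster. The summed cluster of CL5171.Contig1 had log2 ratios of -0.75 and -1.24, and that of CL3794.Contig2 had -0.33 and 0.83, so neither summed cluster passed 4-fold.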

How the results depend on the processing

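Over 30 alternative values of the 6 ratios of Unigene7021 and Unigene14536, 26 lay within 1.5-fold of the value given. The others came from FPKM as deposited, where Unigene7021 had log2 ratios of 1.81 in the dual mycelia over T. fuciformis alone and -1.47 over T. fuciformis after interaction, and from a pseudocount of 0.1, where Unigene14536 had -6.63 in the dual mycelia over A. stygium alone and -2.92 over A. stygium after interaction. The second value of Unigene7021 has the other sign, because FPKM as deposited divides the dual library between the fungi. Of 56 alternative counts of the superfamily list, 28 differed by over 1.5 times, on main counts of 0 to 3. For T. fuciformis after interaction, the count higher was 5 with a pseudocount of 0.1, 1 at 10 FPKM, 5 at 2-fold and 1 in the KOG0143 class, and the count lower 1 with the pseudocount, at 2-fold and in KOG0143. For dual mycelia over T. fuciformis alone, the count higher was 0 without rescaling, 5 at 2-fold and 5 in KOG0143, and the count lower 4 without rescaling, 0 at 10 FPKM, 3 at 2-fold and 0 with clusters summed. For A. stygium after interaction, the count higher was 2 with the pseudocount, 0 without rescaling, 0 at 10 FPKM and 3 at 2-fold, and the count lower 1 without rescaling, at 10 FPKM and with clusters summed. For dual mycelia over A. stygium alone, the count higher was 1 at 10 FPKM, 5 at 2-fold and 1 with clusters summed, and the count lower 1 without rescaling, 1 at 10 FPKM, 5 at 2-fold and 1 with clusters summed. The KOG0143 list was chosen after seeing the data. No paired analysis was possible because each condition had 1 library, and for the same reason no library could be left out.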
